A study of Gallus gallus with 4 samples.

Results

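CD83-high and CD83-negative monocytes were compared within the blood of the same hens. CD83 is a surface protein of the immunoglobulin superfamily that is known from mammals as a marker of mature dendritic cells and of activated monocytes, macrophages and B cells. Chicken blood monocytes are phagocytes that sense microbes through pattern recognition receptors. In vertebrate monocytes such signals pass through adaptor and kinase complexes to NF-kB, a family of transcription factors held in the cytoplasm by inhibitor proteins. NF-kB in turn induces chemokines, interleukin-1 and its own inhibitors, and in mammals CD83 is among the genes known to respond to it.

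The study isolated blood leukocytes of clinically healthy 24-week-old laying hens on Ficoll, depleted thrombocytes with an antibody to CD41/61, and sequenced 4 droplet-based single-cell libraries of a single untreated condition. The labels name the strain as Bovans Robust, which differs from the strain in the methods of the study. Library numbers come from the barcodes and only tell the libraries apart. The deposited matrix held 15271 genes and 16936 cells. Libraries 3 and 4, as named by the barcode prefixes, shared 4890 barcodes, whereas other pairs shared 1 to 9, so library 4 was left out and n was 3 libraries of 12042 cells.

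Cells were taken as monocytes where MMR1L4, a mannose receptor of chicken monocytes and macrophages, had a value of at least 1, LY86, CD14 and CSF3R summed to at least 2, the B-cell factors PAX5 and EBF1 summed to under 3, and CD247, the zeta chain of the T-cell receptor complex, was at most 1. This gave 1372 monocytes. Of these, 254 had a CD83 value of 3 or more and were called CD83-high, 619 had a CD83 of 0 and were called CD83-negative, and 499 had a CD83 of 1 or 2 and were called CD83-intermediate. CD83-high cells numbered 49, 90 and 115 in libraries 1, 2 and 3, and CD83-negative cells numbered 105, 188 and 326. The share of monocytes that was CD83-high was 19.8% (95% Clopper-Pearson interval 15.1 to 25.4), 20.5% (16.8 to 24.6) and 16.8% (14 to 19.8), with a mean of 19.0% ± 1.99 (SD, n = 3), and the intervals of the libraries overlapped. These intervals cover counting error only.

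CD83 itself set the groups and is no result. Its level, as its summed value per 10000 values of all other genes, was 15, 18.7 and 17.4 in the CD83-high cells and 5.0, 5.69 and 5.41 in the CD83-intermediate cells of libraries 1, 2 and 3. All levels that follow are on this scale of summed values per 10000. CD83 lies on chromosome 2 at 60421779 to 60434528 of GRCg7b.

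The rule required MMR1L4 and a minimum sum of LY86, CD14 and CSF3R in every cell, so their presence in both groups is no result. The genes the rule used are described with no test. MMR1L4 was at 10.8, 12.7 and 9.86 in the CD83-negative cells of libraries 1 to 3 and at 8.87, 9.36 and 8.53 in the CD83-high cells. Every CD83-high value lay below every CD83-negative value, which was also so for 4.43% of the genes tested below. CSF3R, the receptor of granulocyte colony-stimulating factor, was at 15.7, 22.8 and 17.6 against 16.4, 24.7 and 17.1. LY86, a partner of toll-like receptor family proteins, was at 5.92, 15.1 and 16.6 against 5.18, 13.3 and 12.2. CD14, the co-receptor of lipopolysaccharide, was at 0.294, 0.988 and 0.684 against 0.549, 0.403 and 0.776. Of the markers the rule did not use, CSF1R, the receptor of macrophage colony-stimulating factor, was at 4.52, 6.51 and 6.83 against 4.55, 5.83 and 6.10. SPI1, the transcription factor PU.1 of myeloid cells, was at 5.11, 7.17 and 6.13 against 5.57, 8.96 and 5.61. Neither passed the test described next (adjusted p = 0.794 and 0.798, limma).

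Median totals and median mitochondrial shares of the groups lay close together. The deposited values were taken as depth-corrected, so their totals cannot show whether the groups were sequenced to a like depth. The median total of values per cell was 2637, 2419 and 2365.5 in CD83-negative cells and 2658, 2432.5 and 2384 in CD83-high cells. The median share of mitochondrial transcripts was 15.9%, 12.4% and 14.8% against 15.3%, 12.1% and 14.6%. The median share of ribosomal protein transcripts was 1.72%, 4.64% and 4.37% against 1.41%, 4.5% and 3.04%, and was lower in the CD83-high cells of each library. A single value of 1 in a CD83-high profile corresponded to 0.0783, 0.0447 and 0.0352 per 10000 in libraries 1 to 3, which sets the step of the lowest levels.

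The main comparison asked which genes differed between CD83-high and CD83-negative monocytes of the same library. CD83-high monocytes had more transcripts of the chemokines IL8L1, IL8L2 and LOC395551, of the cytokines IL1B and IL18, and of 5 NF-kB subunits and inhibitors, and fewer of S100A12, PPARG and SPINK2. Of 7193 genes tested, 70 passed an adjusted p of 0.05 (limma with library as a block, Benjamini-Hochberg adjustment over all genes tested), which is 0.973% of the genes. Higher in CD83-high cells were 54 genes (0.751%), by 0.47 to 2.64 on the log2 scale, and lower were 16 genes (0.222%), by log2 differences of -0.31 to -1.78. All 70 differed in the same direction in 3 of 3 libraries. The CD83-high values of all libraries lay above all CD83-negative values for 39 of the 54 higher genes, against 4.99% of all genes tested, and below them for 8 of the 16 lower genes, against 4.43%. The genes were picked by their p in these same profiles, which favours both a shared direction and a lack of overlap. The counts and ranges include IL13RA2, EDA, ADGRG2, PRDM8 and MRPS26, whose mean in the lower group was under 0.1. These genes entered the test only through the group where they were high, which favours a difference. The median log2 difference over all genes tested was -0.03. Without the library block, 1 gene, ZBTB46, passed, and without library 1, 2 or 3 the numbers were 141, 42 and 68. Of the 70 genes, 32 passed in each of these 3 fits, and 4, 33 and 20 did not pass without library 1, 2 and 3. Of the 54 higher genes, 38 had their largest difference in library 2. In cells within the interquartile range of value totals 24 genes passed, all among the 70, and of the listed genes described next IL18, IRAK2, BHLHE40, DUSP5, ZC3H12A, TFEC, PPARG, SPINK2 and ANXA1 did not.

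**Figure D1:**
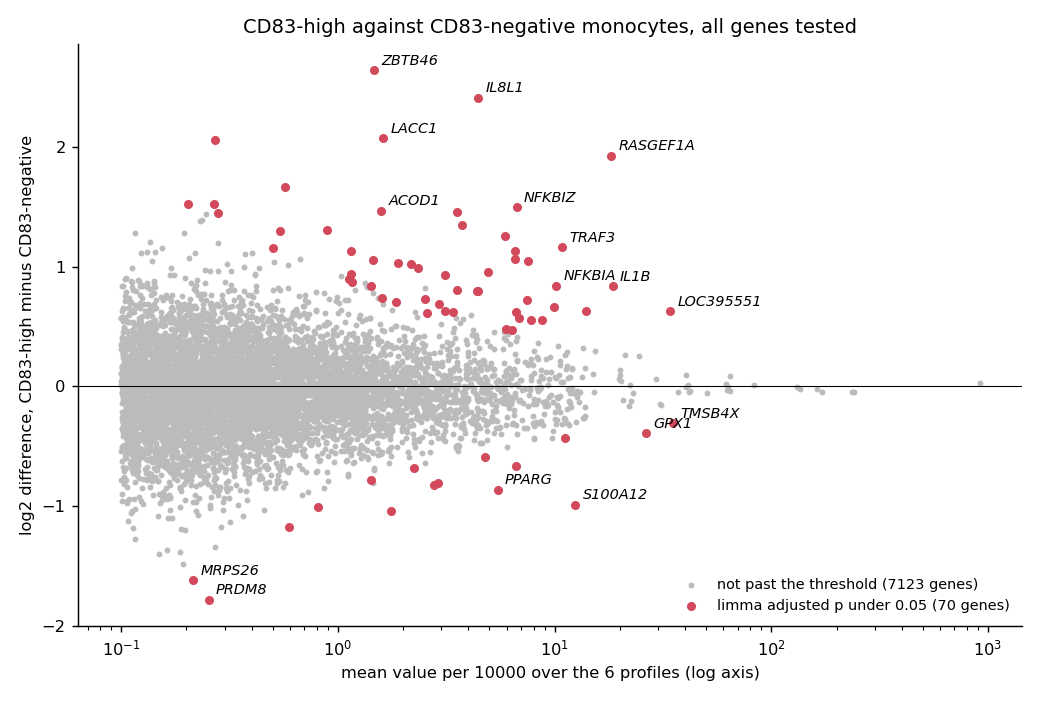
Each point is one of the 7193 genes tested, with its mean value per 10000 over the 6 profiles on a log x axis and its log2 difference, CD83-high minus CD83-negative monocytes, on the y axis; red points are the 70 genes past an adjusted p of 0.05. ZBTB46 and IL8L1 stand highest at 2.64 and 2.41, and among the genes of higher level S100A12 stands lowest at -0.99.

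Chemokines were the first group of the higher genes. The list of chemokines held 20 genes, of which 9 were in the file and 3 were tested, and all 3 were higher. IL8L1, like the cytokine IL1B below, was a preset marker of this comparison, chosen with earlier results of these data known. The calls of these genes, and their part in the counts of their lists, are therefore no independent support. All the lists and their members were likewise chosen with earlier results known. The counts and medians of the lists, here and below, are therefore a description and no independent support. IL8L1 is a chicken homologue of mammalian interleukin-8, a chemokine that attracts granulocytes, and lies on chromosome 4 at 50430778 to 50434071 (GRCg7b). Its level was 0.698, 1.46 and 1.69 in the CD83-negative cells of libraries 1 to 3 and 4.32, 12.8 and 5.78 in the CD83-high cells. The groups did not overlap, and library 2 was highest. The log2 difference was 2.41 ± 0.19 (SE, adjusted p = 1.08e-06, limma). IL8L1 was seen in few cells of either group. A value of at least 1 was found in 2.86%, 3.72% and 7.06% of CD83-negative cells and in 14.3%, 28.9% and 17.4% of CD83-high cells. Cells with CD247 of at least 3 and no MMR1L4, PAX5 or EBF1 were taken as T cells. The study lists CD247 as also expressed in NK cells, so NK cells may be included. Among these T cells, at median totals of 2369 to 2581 values, the mean share with IL8L1 was 0.132%.

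IL8L2, the other chicken interleukin-8 homologue, lies on the same chromosome at 50443423 to 50446598. It was at 6.69, 4.79 and 5.36 in the CD83-negative and 10.8, 10.2 and 7.16 in the CD83-high cells, with no overlap (log2 difference 0.72 ± 0.12, adjusted p = 0.00351, limma). In cells with neither MMP9 nor IL1R2 the IL8L2 difference was 0.74 and did not pass (adjusted p = 0.0944, limma). Both genes lie within the span of RASSF6 (50380135 to 50494954), a Ras association domain gene that was also among the 70, at 0.184, 0.279 and 0.330 against 0.392, 0.851 and 0.987. The annotation used here gives no strand, so transcripts of RASSF6 and of the IL8L genes in its span may have been counted for each other. RASSF6 did not pass without library 2 (log2 difference 1.07, adjusted p = 0.216) or without library 3 (1.06, adjusted p = 0.267, limma).

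LOC395551, which RefSeq lists with the synonym CCL4, codes for a CC chemokine and lies on chromosome 19 at 906402 to 907528. It was at 29.0, 31.1 and 19.0 in CD83-negative cells and 38.6, 60.3 and 27.4 in CD83-high cells. The groups overlapped between libraries but the CD83-high cells were higher within each library (log2 difference 0.63 ± 0.08, adjusted p = 0.000286, limma).

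Among the cytokines, 2 of the 7 genes tested were higher and none was lower, and the list's median log2 difference was 0.40. IL1B, interleukin-1 beta, is a secreted inflammatory cytokine and lies on chromosome 22 at 4457394 to 4459147. Its level was 22, 10.5 and 8.03 in the CD83-negative cells and 28.5, 29.4 and 12.7 in the CD83-high cells. The levels of the libraries overlapped, since library 1 was high in both groups, and the difference within a library was largest in library 2. The log2 difference was 0.84 ± 0.14 (adjusted p = 0.00351, limma). Without library 2 the IL1B difference was 0.51 and it still passed, and in cells with neither MMP9 nor IL1R2 it was 0.64 and did not (adjusted p = 0.0688, limma). IL1B was found in most monocytes of either group, with a value of at least 1 in 94.3%, 80.3% and 70.6% of CD83-negative cells and 100%, 100% and 86.1% of CD83-high cells, compared with a mean of 2.83% of T cells. IL18, a cytokine of the interleukin-1 family, was at 5.0, 1.89 and 2.84 against 8.39, 4.75 and 3.67 (log2 difference 0.79 ± 0.15, adjusted p = 0.0138, limma). IL18 did not pass without library 2, where its difference was 0.55 (adjusted p = 0.0802, limma). The 5 other cytokines tested (IL15, IL16, LITAF, TGFB1 and CSF1) did not pass.

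The receptors of cytokines held 1 higher gene of 20 tested, and their median log2 difference was -0.03. This gene was IL1R2, a decoy receptor that binds interleukin-1 without passing on a signal in mammals. It was at 6.25, 4.79 and 1.75 in CD83-negative cells and 8.71, 13.9 and 4.12 in CD83-high cells. The groups overlapped, with library 3 lowest in both, and the log2 difference was 1.06 ± 0.15 (adjusted p = 0.00105, limma). IL1R2 is also in the list of markers of heterophils, the avian counterparts of neutrophils. Its signalling co-receptor IL1RAP was at 8.97, 7.97 and 6.37 against 7.45, 5.78 and 5.82 and did not pass (log2 difference -0.28, adjusted p = 0.287, limma). IL13RA2, outside this list and a decoy receptor for interleukin-13 in mammals, was at 0, 0 and 0.165 in CD83-negative cells and at 0.628, 0.403 and 0.423 in CD83-high cells, with a log2 difference of 2.06 ± 0.38 at a pseudocount of 0.1 (adjusted p = 0.0106, limma). Its CD83-negative mean was 0.0549, under the mean of 0.1 that a gene needed to be tested, so it entered the test through the CD83-high cells, which favours a difference.

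**Figure D2:**
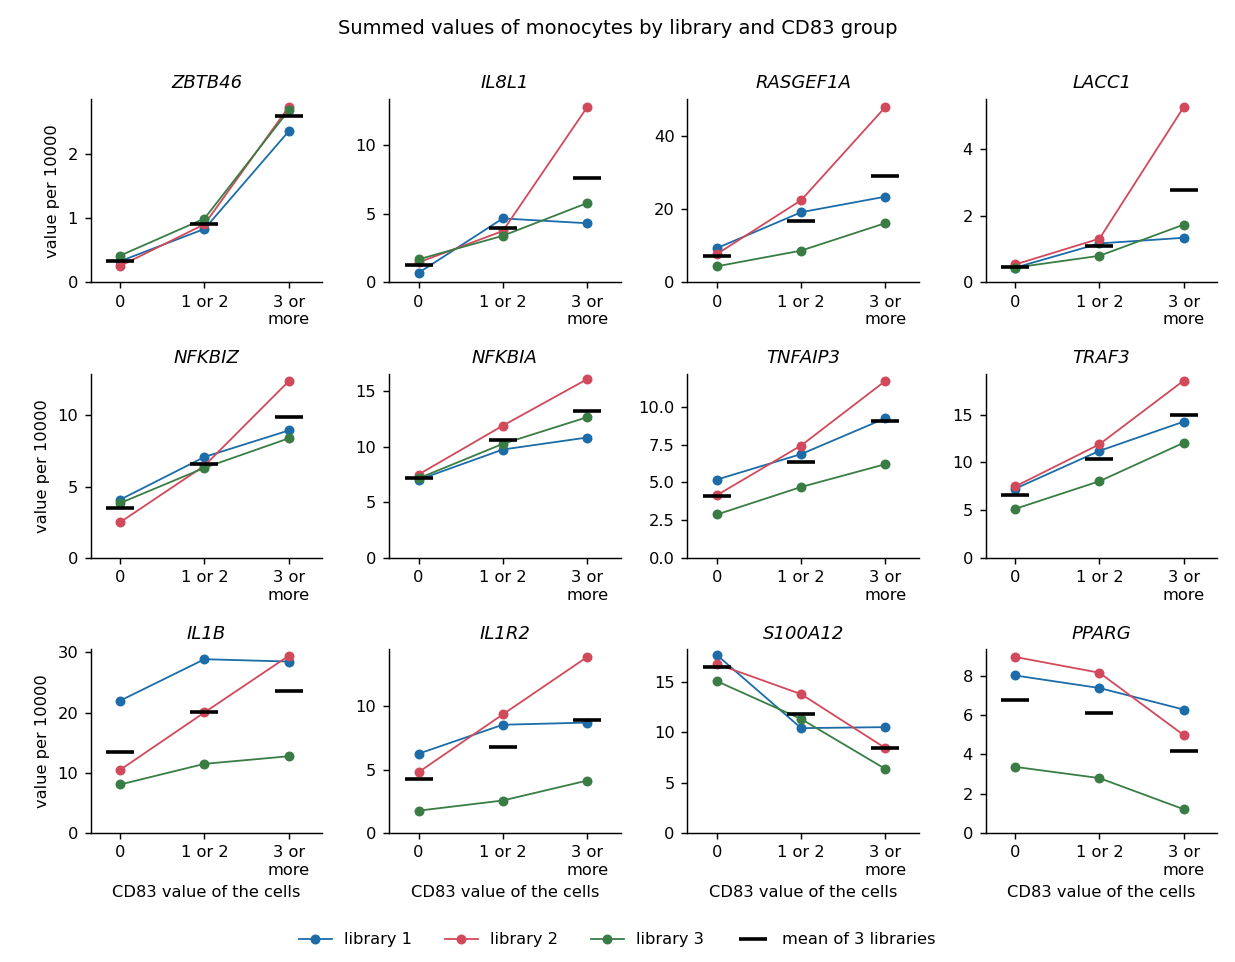
Values per 10000 of 12 genes in monocytes with CD83 of 0, of 1 or 2, and of 3 or more; coloured points and lines are libraries 1 to 3 and black bars are their means. In all 3 libraries the 10 genes from ZBTB46 to IL1R2 are higher, and S100A12 and PPARG lower, at a CD83 of 3 or more than at 0.

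The NF-kB genes were considered in the order of the pathway. Of the signal transduction genes, 3 of 20 tested were higher and none lower, with a median log2 difference of 0.17. TRAF3, an adaptor and ubiquitin ligase that restrains the alternative NF-kB pathway in mammals, lies on chromosome 5 at 49323443 to 49392830. It was at 7.24, 7.47 and 5.12 in CD83-negative cells and 14.3, 18.6 and 12.1 in CD83-high cells. There was no overlap, and the log2 difference was 1.16 ± 0.09 (adjusted p = 1.08e-06, limma). BIRC2, a ubiquitin ligase of the inhibitor of apoptosis family that works in the same complex, was at 2.13, 2.08 and 1.82 against 5.26, 7.21 and 3.84 (log2 difference 1.35 ± 0.15, adjusted p = 5.51e-05, limma). IRAK2, a kinase of the toll-like and interleukin-1 receptor pathway, was at 1.36, 1.38 and 1.81 against 2.27, 3.09 and 4.16 (log2 difference 0.99 ± 0.16, adjusted p = 0.00272, limma). BIRC2 and IRAK2 did not overlap between the groups either. The other 17 genes of the list, among them the adaptor MYD88 and the kinases of the IKK complex, did not pass.

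Of the NF-kB subunits and inhibitors, 5 of 11 tested were higher, 10 of 11 had a log2 difference above 0, and the list's median log2 difference was 0.72. NFKB1, the subunit p105/p50, lies on chromosome 4 at 60304611 to 60362176 and overlaps MANBA in the annotation. It was at 5.88, 3.74 and 5.09 in CD83-negative and 11.5, 10.9 and 8.18 in CD83-high cells (log2 difference 1.05 ± 0.13, adjusted p = 0.000209, limma). In cells with neither MMP9 nor IL1R2 the NFKB1 difference was 0.73 and did not pass (adjusted p = 0.147, limma). The other 4 of the 5 code for proteins that hold NF-kB activity back or modify it.

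NFKBIA codes for IkB-alpha, which binds NF-kB in the cytoplasm. It was at 7.02, 7.5 and 7.15 in CD83-negative cells, a narrow range, and at 10.8, 16.1 and 12.7 in CD83-high cells (log2 difference 0.84 ± 0.10, adjusted p = 0.000106, limma). NFKBIZ codes for the nuclear IkB-zeta, which in mammals promotes a subset of NF-kB targets, and was at 4.08, 2.49 and 3.84 against 8.95, 12.4 and 8.39 (log2 difference 1.5 ± 0.17, adjusted p = 8.01e-05, limma). These groups did not overlap for either gene.

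TNFAIP3 codes for A20, a ubiquitin-editing enzyme that ends NF-kB signalling. It was at 5.18, 4.14 and 2.86 against 9.26, 11.7 and 6.21 (log2 difference 1.13 ± 0.12, adjusted p = 5.51e-05, limma). TNIP2, a partner of A20, was at 4.37, 3.74 and 2.10 against 7.85, 12.1 and 5.18 (log2 difference 1.25 ± 0.14, adjusted p = 5.51e-05, limma). Library 3 was lowest and library 2 highest among the CD83-high values of both genes, with no overlap of the groups. Among the members that did not pass, NFKBIE was at 0.809, 0.709 and 0.938 against 1.41, 1.21 and 1.62 (log2 difference 0.72, adjusted p = 0.0908) and the subunit REL at 1.54, 1.18 and 1.84 against 2.51, 1.93 and 2.12 (0.51, adjusted p = 0.223, limma).

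The survival and effector targets of NF-kB gave 0 of 9 genes past the threshold in limma, also 0 at an unadjusted p under 0.05, and a median log2 difference of 0.02. Over all genes tested 0.973% passed, and 722 of 7193 lay at an unadjusted p under 0.05 (limma). With 9 genes, a count of 0 is near those shares and no result about these targets. The receptor CD40, for example, was at 0.478, 0.515 and 0.481 against 0.549, 0.851 and 0.635 (adjusted p = 0.624), and the adhesion receptor CD44 at 101, 58.0 and 23.2 against 91.7, 74.0 and 20.8 (adjusted p = 0.969, limma).

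**Figure D3:**
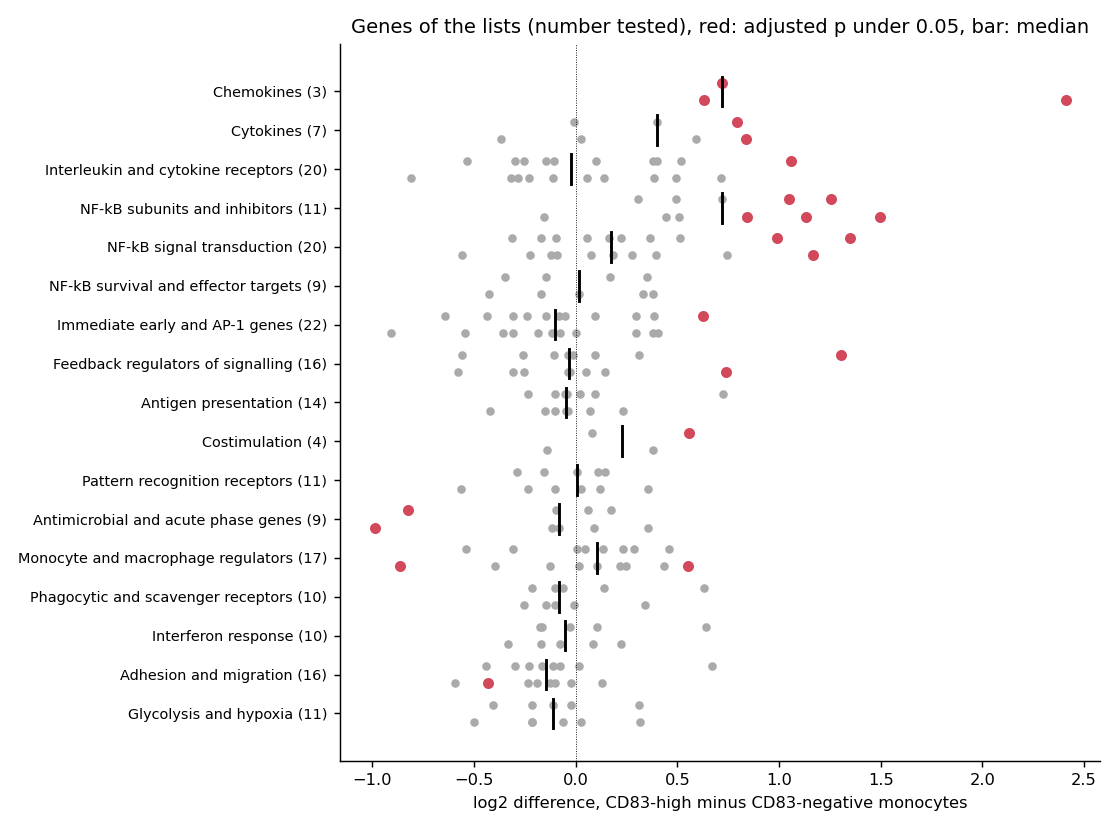
Log2 differences, CD83-high minus CD83-negative monocytes, of the tested genes of 17 lists, with the number tested in parentheses; each point is a gene, red points passed an adjusted p of 0.05 and black bars are medians. Medians lie at 0.72 for the chemokines and for the NF-kB subunits and inhibitors, and at -0.05 for antigen presentation.

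Of the immediate early and AP-1 genes, which many stimuli and cell handling induce, 1 of 22 tested was higher and none lower, and the median log2 difference was -0.10. FOS was at 42.6, 34.7 and 35.9 in CD83-negative and 41.0, 38.6 and 30.2 in CD83-high cells (adjusted p = 0.850). JUN was at 6.03, 3.50 and 3.19 against 3.92, 2.91 and 1.83 (log2 difference -0.54, adjusted p = 0.0749) and EGR1 at 3.97, 5.09 and 3.85 against 3.37, 3.54 and 3.03 (adjusted p = 0.257, limma). The higher gene was BHLHE40, a basic helix-loop-helix repressor, at 15.1, 8.42 and 9.72 against 20.1, 16.4 and 14 (log2 difference 0.63 ± 0.10, adjusted p = 0.00211, limma).

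Of the feedback regulators of signalling, 2 of 16 were higher and none lower, with a median of -0.03. DUSP5, a phosphatase of the kinase ERK, was at 0.662, 0.558 and 0.190 against 1.33, 1.97 and 0.635 (log2 difference 1.30 ± 0.23, adjusted p = 0.00682, limma), and did not pass without library 2 (1.13, adjusted p = 0.0940). ZC3H12A, an RNase that degrades cytokine transcripts in mammals, was at 1.10, 1.09 and 1.32 against 1.96, 2.02 and 2.08, with no overlap (log2 difference 0.74 ± 0.17, adjusted p = 0.0442, limma). ZC3H12A did not pass without library 2 (0.70, adjusted p = 0.188) or without library 3 (0.80, adjusted p = 0.118, limma). DUSP1, the phosphatase of stress-activated kinases, was at 10.5, 8.05 and 4.21 against 11.1, 8.47 and 4.23.

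Antigen presentation genes were close to equal. Of 14 tested, 0 passed the threshold in limma, against 0.973% of all genes tested. At an unadjusted p under 0.05 (limma) lay 1 (TAP1), against 722 of all 7193 genes, and the median log2 difference was -0.05. CD74, the invariant chain of MHC class II, was at 24.8, 58.5 and 44.9 in CD83-negative and 24.2, 60.1 and 41.6 in CD83-high cells (log2 difference -0.04 ± 0.05). The class II beta chain BLB2 was at 26.8, 59.8 and 30.6 against 29.7, 62.0 and 32.6 (0.10 ± 0.05), and BLB1 at 6.47, 13.1 and 10.2 against 7.45, 14.6 and 9.24 (0.07 ± 0.09). The libraries differed more from each other than the groups within a library did. Among the 4 costimulation genes tested, ALCAM, an adhesion molecule that binds CD6 on T cells, was higher at 7.45, 10.5 and 13.5 against 6.91, 5.93 and 8.02 (log2 difference 0.56 ± 0.12, adjusted p = 0.0344, limma). ALCAM did not pass without library 2 (0.42, adjusted p = 0.0988) or without library 3 (0.46, adjusted p = 0.124, limma). CD86, which binds CD28 on T cells, was at 0.0368, 0.279 and 0.0887 in CD83-negative and 0, 0.134 and 0.212 in CD83-high cells (adjusted p = 0.944, limma).

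In several other lists no gene passed. Pattern recognition receptors gave 0 of 11 (median log2 difference 0.01), phagocytic and scavenger receptors 0 of 10 (-0.08), interferon response genes 0 of 10 (-0.05) and glycolysis and hypoxia genes 0 of 11 (-0.11). At an unadjusted p under 0.05 in limma, where 722 of all 7193 genes lay, were the receptor TLR1B and 5 of the 11 glycolysis and hypoxia genes (HK2, GAPDH, LDHA, HIF1A and BNIP3). Of those 11 genes, 3 had a log2 difference above 0. TLR4, the receptor of lipopolysaccharide, was at 1.73, 2.06 and 1.32 in CD83-negative and 2.04, 1.97 and 1.48 in CD83-high cells, and TLR2A at 1.73, 3.01 and 2.95 against 1.73, 3.05 and 2.96. Among the 17 regulators of monocytes and macrophages, 1 was higher and 1 lower.

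PPARG was the lower one. It codes for a nuclear receptor of lipid metabolism and anti-inflammatory programmes in macrophages, and lies on chromosome 12 at 5019526 to 5074079. It was at 8.01, 8.96 and 3.36 in CD83-negative cells and 6.28, 4.97 and 1.2 in CD83-high cells. The groups overlapped, since library 3 was low in both, and the log2 difference was -0.87 ± 0.15 (adjusted p = 0.00803, limma). In cells with no value of FLT3, ZBTB46 or CCR7 the PPARG difference was -0.63 and did not pass (adjusted p = 0.190, limma). The higher regulator was TFEC, a transcription factor of the MiT family known from macrophages, at 7.57, 4.92 and 6.37 against 10.4, 7.30 and 10.0 (log2 difference 0.55 ± 0.10, adjusted p = 0.00600, limma). In cells with neither MMP9 nor IL1R2 the TFEC difference was 0.19 and did not pass (adjusted p = 0.981, limma).

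Of the antimicrobial and acute phase genes, 2 of 9 tested were lower and none higher, with a median log2 difference of -0.08. S100A12, a calcium-binding protein of phagocytes also known as calgranulin C, lies on chromosome 25 at 1707065 to 1708503. It was at 17.7, 16.8 and 15.1 in CD83-negative cells and 10.5, 8.42 and 6.35 in CD83-high cells. All CD83-high values lay below all CD83-negative values, and the log2 difference was -0.99 ± 0.09 (adjusted p = 1.11e-05, limma). The share of cells with S100A12 was 76.2%, 62.8% and 63.5% in CD83-negative cells and 63.3%, 47.8% and 48.7% in CD83-high cells, compared with a mean of 2.20% of T cells. SPINK2, a serine protease inhibitor, was at 1.88, 4.72 and 3.69 against 0.628, 2.82 and 2.96, with overlap of the groups (log2 difference -0.82 ± 0.18, adjusted p = 0.0414, limma). SPINK2 did not pass without library 2 (-0.87, adjusted p = 0.0530), and its difference was -0.52 without library 1. The lipocalin EXFABP was at 8.23, 27.2 and 21.8 against 7.69, 28.8 and 24.9, and the ferritin heavy chain FTH1 at 35.7, 80.6 and 69.2 against 36.9, 92.4 and 70.3, and neither passed (adjusted p = 0.846 and 0.562, limma).

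Of the adhesion and migration genes, 1 of 16 was lower, and 3 of 16 had a log2 difference above 0, with a median of -0.15. The lower gene was ANXA1, a phospholipid-binding protein that limits inflammation in mammals, at 10.6, 13.9 and 14.1 against 7.14, 10.3 and 11.3 (log2 difference -0.43 ± 0.09, adjusted p = 0.0186, limma). The ANXA1 difference was -0.24 in cells with neither MMP9 nor IL1R2 and -0.37 in cells with no value of FLT3, ZBTB46 or CCR7, and passed in neither (adjusted p = 0.940 and 0.261, limma). The intermediate filament gene VIM was at 10.8, 18.9 and 12.2 against 9.41, 14.9 and 9.48 and the receptor CCR2 at 2.02, 3.44 and 2.88 against 1.80, 2.15 and 1.98. Neither passed (adjusted p = 0.102 and 0.256, limma).

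Of the 70 genes, 24 were in a list and 46 in none. The largest difference of all was that of ZBTB46, a zinc finger transcription factor that in mice is a marker of classical dendritic cells. It lies on chromosome 20 at 9911415 to 9950833. Its level was 0.331, 0.258 and 0.418 in CD83-negative cells and 2.35, 2.73 and 2.68 in CD83-high cells. The values of each group lay close together and far from the other group, and the log2 difference was 2.64 ± 0.20 (adjusted p = 1.08e-06, limma). ZBTB46 had a value of at least 1 in 8.57%, 5.85% and 9.51% of CD83-negative cells and in 30.6%, 45.6% and 38.3% of CD83-high cells. The gene is not particular to monocytes in this blood, since the cells taken as T cells by CD247 had it in 19.6%, 30.2% and 24.8% of cells. With every cell thinned to 1500 values, the mean shares of ZBTB46 were 3.96% of CD83-negative, 25.5% of CD83-high and 17.6% of T cells.

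Of the other markers of dendritic cells, only CADM1 was tested, and it did not pass. FLT3, BATF3, CCR7 and LAMP3 were too low to be tested, and XCR1 was not in the file. Levels this low cannot show whether these genes changed with ZBTB46. CADM1 was at 2.90, 2.58 and 1.99 against 2.83, 2.46 and 2.64 (log2 difference 0.10 ± 0.15, adjusted p = 0.878, limma). FLT3 was at 0 in all 3 CD83-negative profiles and in those of libraries 2 and 3 of the CD83-high cells, and at 0.157 in library 1. BATF3, CCR7 and LAMP3 were at 0.0705 or less in every profile. The summed level of the list was 2.47 to 3.31 in CD83-negative and 5.29 to 5.46 in CD83-high cells, most of the change being ZBTB46 itself. Among cells with no value of FLT3, ZBTB46 or CCR7, which left 32, 49 and 70 CD83-high cells, 20 of the 70 genes passed. The log2 difference there was 2.42 for IL8L1 and 0.81 for IL1B, which passed, and 0.68 for IL18 and 0.76 for IRAK2, which did not (adjusted p = 0.133 for both, limma). DUSP5, ZC3H12A, ALCAM, SPINK2 and GPX1 did not pass there either.

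After ZBTB46 and IL8L1, the largest log2 differences were those of LACC1, IL13RA2 (given above) and RASGEF1A. LACC1, an enzyme of purine and amino acid metabolism in macrophages, was at 0.441, 0.537 and 0.444 in CD83-negative cells and 1.33, 5.24 and 1.73 in CD83-high cells (log2 difference 2.07 ± 0.26, adjusted p = 0.000223, limma). RASGEF1A, a guanine nucleotide exchange factor of Ras family GTPases, lies on chromosome 6 at 5287482 to 5434128. It was at 9.37, 7.75 and 4.41 against 23.5, 48.0 and 16.2 (log2 difference 1.93 ± 0.15, adjusted p = 1.08e-06, limma). Library 2 was highest for both, and the groups did not overlap. RASGEF1A was found in 61.0%, 57.4% and 47.2% of CD83-negative cells and 95.9%, 95.6% and 80.0% of CD83-high cells, and in a mean of 19.6% of T cells. PLXNA1, a receptor of semaphorins, was at 1.99, 2.21 and 1.34 against 5.49, 6.54 and 3.77 (log2 difference 1.46 ± 0.13, adjusted p = 5.47e-06, limma).

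ACOD1, the mitochondrial enzyme that makes itaconate in activated macrophages, was uneven between libraries. It was at 0.110, 0.838 and 0.748 in CD83-negative cells and 0.157, 5.11 and 2.54 in CD83-high cells, so that library 1 was near the step of a few values in both groups. The ACOD1 difference was 1.47 ± 0.30 on the log2 scale (adjusted p = 0.0259, limma) and did not pass without library 2 (0.96, adjusted p = 0.288).

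The remaining genes of the 15 largest higher differences were low in level. RIPK3, a kinase of necroptosis in mammals, was at 0.110, 0.344 and 0.330 against 0.392, 1.34 and 0.741. EDA, the TNF family ligand ectodysplasin, was at 0.0368, 0.0430 and 0.0760 against 0.235, 0.269 and 0.564. ADGRG2, an adhesion G protein-coupled receptor, was at 0.0368, 0.0859 and 0.127 against 0.314, 0.762 and 0.282. EDA and ADGRG2 had CD83-negative means of 0.0519 and 0.0831, under the limit of 0.1 for a test, and so entered it through the CD83-high cells, which favours a difference. The 3 genes did not pass without library 2 (adjusted p = 0.235, 0.111 and 0.386), and EDA did not without library 3 either (adjusted p = 0.347, limma). The uncharacterised genes LOC112530071 and LOC100858973 were at 0.331, 0.322 and 0.0507 against 1.10, 1.12 and 0.494, and at 0.0735, 0.0430 and 0.203 against 0.314, 0.403 and 0.635. LOC100858973 did not pass without library 2 (adjusted p = 0.188) or library 3 (adjusted p = 0.153, limma).

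Among the lower genes, the largest log2 differences also fell on genes of low level. PRDM8, a histone methyltransferase family member, was at 0.515, 0.580 and 0.241 in CD83-negative and 0, 0.0448 and 0.141 in CD83-high cells (-1.78 ± 0.40). MRPS26, a protein of the mitochondrial ribosome, was at 0.404, 0.344 and 0.355 against 0, 0.0448 and 0.141 (-1.62 ± 0.36). Both had a CD83-high mean of 0.062, under the limit of 0.1, and so entered the test through the CD83-negative cells, which favours a difference. Neither passed without library 2 (adjusted p = 0.181 and 0.113), nor did MRPS26 without library 1 (adjusted p = 0.0523, limma). SMAD7, an inhibitor of TGF-beta signalling, was at 3.75, 0.730 and 2.42 against 1.88, 0.179 and 1.55 (-1.05 ± 0.20, adjusted p = 0.0156, limma). The SMAD7 difference was 0.035 in cells with neither MMP9 nor IL1R2.

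DOCK10, a guanine nucleotide exchange factor, was at 4.15, 3.69 and 3.26 against 1.96, 1.79 and 2.5. PDE4D, a phosphodiesterase that degrades cyclic AMP, was at 11.4, 7.30 and 6.26 against 4.79, 5.29 and 5.01, and INPP4A, a phosphoinositide phosphatase, at 6.8, 5.54 and 5.03 against 3.85, 3.54 and 3.95. All 3 were lower with no overlap. PDE4D did not pass without library 1 (log2 difference -0.39, adjusted p = 0.111), and DOCK10 and INPP4A did not without library 2 (-0.71 and -0.57, adjusted p = 0.0615 and 0.0530, limma). GRK4 (a receptor kinase), CCNG2 (an unconventional cyclin), F5 (coagulation factor V) and SLC12A4 (a potassium-chloride cotransporter), with log2 differences of -1.18, -1.01, -0.78 and -0.68, did not pass without library 2 (adjusted p = 0.144, 0.188, 0.106 and 0.0615) nor without library 3 (adjusted p = 0.134, 0.141, 0.154 and 0.185, limma). GPX1, a glutathione peroxidase, was at 20.8, 37.7 and 31.7 against 15.9, 28.1 and 24.5, lower within each library although the groups overlapped (-0.39 ± 0.06, adjusted p = 0.00246, limma).

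Markers of other blood cells were compared beside these results. The 4 heterophil markers MMP9, BHLHE40, NR4A3 and IL1R2 summed to 53.7, 24.6 and 20.5 in CD83-negative and 65.7, 46.8 and 29.1 in CD83-high cells, higher in each library. BHLHE40 and IL1R2 were higher as given above. MMP9, the gelatinase of heterophil granules, was at 5.62, 4.23 and 1.04 against 6.12, 6.59 and 1.69 (log2 difference 0.47, adjusted p = 0.161), and NR4A3 at 26.7, 7.11 and 7.96 against 30.8, 9.95 and 9.24 (0.30, adjusted p = 0.127, limma). Cells with neither MMP9 nor IL1R2 left 10, 10 and 53 CD83-high and 32, 67 and 211 CD83-negative cells, and 26 genes passed among them, of which 20 were among the 70. The log2 difference there was 2.87 for IL8L1, 1.29 for NFKBIZ, 1.54 for TNFAIP3, 0.96 for TRAF3 and -1.25 for S100A12, and all 5 passed. Of the other listed genes IRAK2, DUSP5, ZC3H12A and ALCAM did not pass there, beside those already given, nor did GPX1. The study found a subcluster within its MMR1L4 clusters with high MMP9 and very low MMR1L4 and MHC class II, likely mainly heterophils. It reported high CD83, IL1B, IL18, TLR4 and TRAF3 there, and high PPARG, S100A12 and SPINK2 in monocytes of high MMR1L4. In monocytes of low MMR1L4, which it described as generally high in MHC class II, the study reported high ALCAM, LOC395551, SAA and TLR7. Here ALCAM and LOC395551 were higher in CD83-high cells. SAA, TLR7 and the class II genes CD74, BLB1 and BLB2 did not pass. MMP9 had a value in a mean of 37% of CD83-negative and 47.8% of CD83-high cells here. Whether heterophil transcripts or such monocyte subtypes contributed to the other differences was not tested.

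Summed markers of B cells were at most 0.74 in CD83-negative and 0.39 in CD83-high profiles, those of T cells at most 0.81 and 0.49, of cytolytic cells at most 0.40 and 0.42, of thrombocytes at most 0.82 and 0.63, and of proliferation at most 0.0507 and 0.106. The rule for monocytes itself capped PAX5, EBF1 and CD247, which are in the B-cell and T-cell sums. Of these lists 1 B-cell, 1 T-cell and 2 thrombocyte genes were high enough to be tested and did not pass, and 0 cytolytic and 0 proliferation genes were tested. Red blood cell markers summed to 1.36 to 1.76 and 1.25 to 2.82. Eosinophil markers were not near the floor, at sums of 8.49, 6.16 and 7.68 in CD83-negative and 8.08, 6.50 and 8.64 in CD83-high profiles. Basophil markers summed to at most 1.25 and 0.86. The 2 eosinophil genes and 1 basophil gene that were tested did not pass.

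The CD83-intermediate cells were compared with the CD83-negative cells as well. This comparison shares its CD83-negative profiles with the first, so values are given side by side. Of 7099 genes tested, 22 passed (0.31%), 21 higher (0.296%) and 1 lower (0.0141%), the lower gene being S100A12 at 10.4, 13.8 and 11.3. S100A12 fell by 0.48 on the log2 scale there and by 0.99 in the CD83-high cells. IL8L1 was at 4.67, 3.75 and 3.40 in the CD83-intermediate cells, a log2 difference of 1.62 where that of the CD83-high cells was 2.41. ZBTB46 was at 0.833, 0.906 and 0.995 (1.23 against 2.64), RASGEF1A at 19.2, 22.5 and 8.71 (1.17 against 1.93) and IL1B at 28.9, 20.0 and 11.5 (0.61 against 0.84). In library 1, IL8L1 and IL1B were lower in the CD83-high cells, at 4.32 and 28.5, than in the CD83-intermediate cells. Of the 70 genes of the first comparison, 50 had a CD83-intermediate level between those of the other groups in all 3 libraries. These genes were picked by their CD83-high difference, which favours this order. The share of all genes tested with this order was not computed, so the count is a description only. No gene passed without the library block, where 121 genes had an unadjusted p under 0.05 against 548 with it, and the numbers without library 1, 2 and 3 were 35, 23 and 29.

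Along the CD83 value the mean levels of ZBTB46, RASGEF1A and TRAF3 went up in steps. Cells with a CD83 of 2, just outside the limit of the CD83-high group, numbered 173, and cells with 3 or 4, just inside it, numbered 181. These values are a description with no test. As means of 3 libraries, ZBTB46 was at 0.336 at a CD83 of 0, 0.862 at 1, 0.968 at 2, 2.00 at 3 to 4 and 3.98 in the 73 cells with 5 or more. RASGEF1A was at 7.18, 14.4, 22.2, 24.0 and 40.7 in the same order, and TRAF3 at 6.61, 9.48, 12.2, 13.5 and 18.7. S100A12 went the other way, at 16.5, 12.7, 10.0, 9.43 and 5.94. NFKB1, IL8L1 and RASGEF1A differed little between a CD83 of 2 and of 3 to 4 in comparison with the SD of the libraries, whereas ZBTB46 of all 3 libraries was higher at 3 to 4 than at 2.

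**Figure D4:**
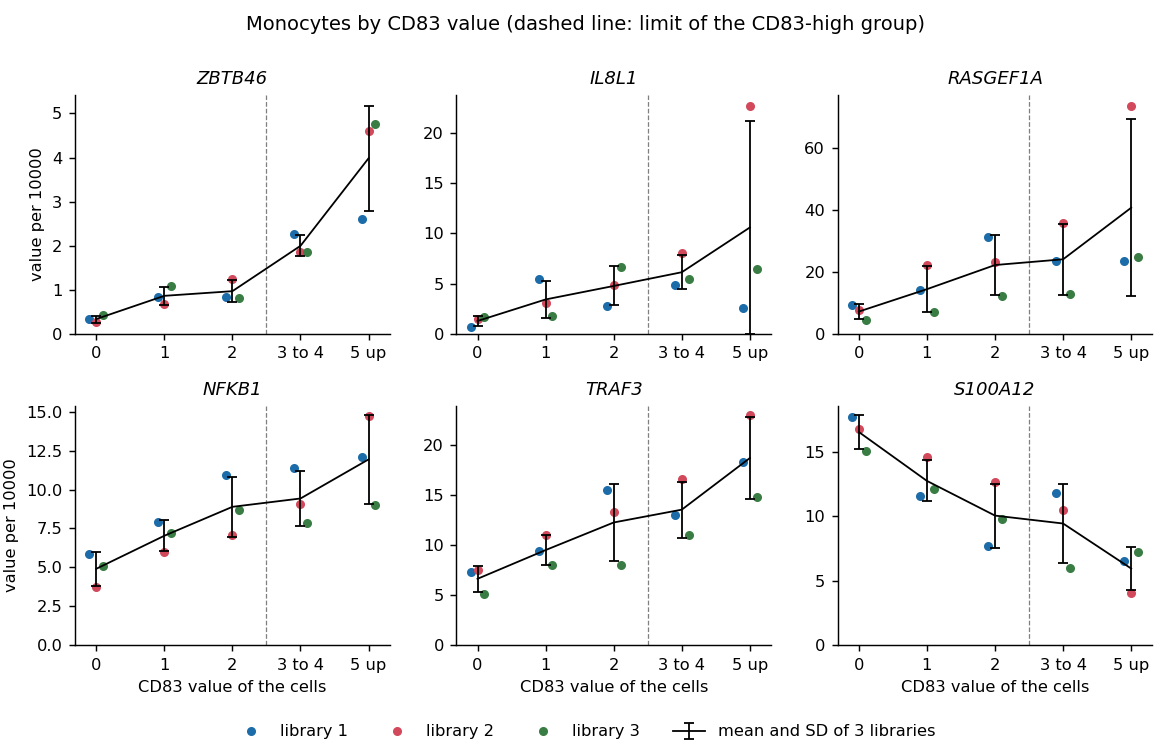
Values per 10000 of 6 genes in monocytes grouped by their CD83 value; coloured points are libraries 1 to 3, the black line joins their means and the bars are SD (n = 3, cut at 0), and the dashed line marks the limit of the CD83-high group. The mean of ZBTB46 goes from 0.336 at a CD83 of 0 to 3.98 at 5 or more, and that of S100A12 from 16.5 to 5.94.

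B cells of the same libraries also held CD83-high cells, so the CD83 contrast of monocytes was tested against theirs. B cells were taken as cells with PAX5 and EBF1 summing to at least 3, no MMR1L4 and CD247 of at most 1, of which 139, 67 and 140 were CD83-high and 385, 282 and 282 CD83-negative. Of 7854 genes tested for a difference between the contrasts of the 2 cell types, 2 passed (0.0255%), TRAF3 and ZBTB46. TRAF3 was at 10.4, 11.0 and 10.3 in CD83-negative and 12.1, 10.6 and 10.6 in CD83-high B cells, a log2 difference of 0.07 ± 0.09, so its difference in monocytes exceeded that in B cells by 1.09 ± 0.13 (adjusted p = 0.00193, limma). ZBTB46 was at 0.537, 0.649 and 0.533 against 0.360, 0.776 and 0.938 in B cells, and its difference in monocytes was larger by 2.48 ± 0.34 (adjusted p = 0.00535, limma). Without library 1 only TRAF3 passed, without library 2 or 3 neither did, and without the block only ZBTB46 did.

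No gene can be called particular to monocytes, since the CD83 contrast was compared with that of B cells only. For the genes other than TRAF3 and ZBTB46, not passing does not show that B cells share their differences. On simulated data, with the limits given below, this test recovered 12.5% of genes changed by 1 on the log2 scale. It recovered 83.1% of those changed by 2. BIRC2 and TNFAIP3 exceeded their B-cell differences by 1.26 and 1.10 and did not pass (adjusted p = 0.1425 and 0.215, limma). IL8L1 was at 0.0114 or less in CD83-negative and 0.0597 or less in CD83-high B cells, and its difference between the cell types was 2.24 (adjusted p = 0.0792, limma). RASGEF1A was at 1.62, 0.723 and 1.10 in CD83-negative and 3.42, 4.36 and 2.49 in CD83-high B cells, with no overlap. Its log2 difference of 1.53 ± 0.23 passed within B cells themselves (adjusted p = 0.0445, limma). It differed from that of monocytes by 0.40 (adjusted p = 0.816, limma). NFKBIA was at 5.69, 3.32 and 5.79 against 7.26, 7.22 and 6.51 and NFKB1 at 4.91, 3.39 and 4.65 against 6.42, 6.62 and 6.86 in B cells. Their differences between the cell types were 0.31 and 0.42 (adjusted p = 0.757 and 0.660, limma).

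**Figure D5:**
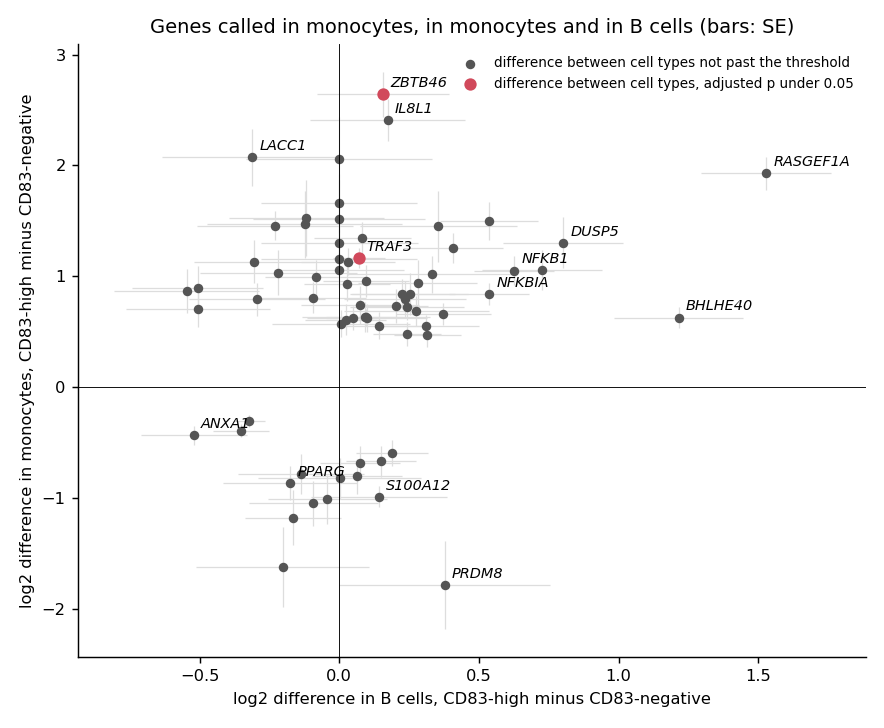
Log2 difference, CD83-high minus CD83-negative, in B cells on the x axis and in monocytes on the y axis for the 70 genes called in monocytes; bars are SE and red points are the 2 genes whose difference between the cell types passed an adjusted p of 0.05. TRAF3 and ZBTB46 lie at 0.07 and 0.16 in B cells and at 1.16 and 2.64 in monocytes.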

How the data were processed

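Single-cell libraries of hen blood leukocytes were aligned by the authors to GRCg7b with Cell Ranger, filtered, cleared of doublets and merged in Seurat. The labels give Cell Ranger version 1.2.0, which differs from the version in the methods of the study. Those methods state that cells above 20% mitochondrial content were removed. By the deposited values, 3.11% to 23.8% of the monocytes of a CD83 group in a library lay above 20%. The deposited matrix was treated as a score, since its whole numbers summed to only 1577 to 3004 per cell, as after a depth correction by the authors, so no count model was used, and no doublet caller was run. Values were summed per library and CD83 group, scaled to 10000 without CD83, and tested on log2(value + 0.1) with limma 3.58.1 in R 4.3.3 for genes with a mean of at least 0.1 (library as block, Benjamini-Hochberg adjustment, threshold 0.05). The 7 other genes of the monocyte rule were described without a test.

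CD83-high and CD83-negative profiles of 1 library come from the same hen. Their deviations from the group means correlated at r = 0.334, 0.384 and 0.308 across genes, which are not independent replicates. An exact sign-flip test over 3 libraries cannot go below p = 0.25 and was not used. Tested on simulated data for the CD83-high comparison (7197 genes), the fit recovered 60.0% of genes changed by 1 and 99.5% of those changed by 2 on the log2 scale, with 3.75% false calls. The simulations used a fixed spread not estimated from the data and the same library effect in both groups. Only genes with a mean of at least 0.5 were changed. These rates therefore do not cover genes of lower level or differences that vary between libraries. Members and lists were chosen with earlier results of these data known. Named were list members and of the genes that passed and moved alike in 3 of 3 libraries, the 15 highest and 15 lowest by log2 difference. Genes were placed with the RefSeq table of GRCg7b. Alternatives covered the pseudocount, filter, scaling, block, libraries, CD83 minimum and sets of cells.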

Additional observations from a re-analysis of the deposited data

Results flagged for a closer look

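TRAF3 and ZBTB46 stood out because their difference with CD83 was not the same in monocytes and in B cells of the same libraries, by a test of that difference itself. The log2 difference of TRAF3 was larger in monocytes by 1.09 ± 0.13 (adjusted p = 0.00193, limma over 7854 genes), and was so in each fit that left out a library, by 1.27, 0.96 and 1.05 without library 1, 2 and 3 (adjusted p = 0.0377, 0.131 and 0.746). The log2 difference of ZBTB46 was larger by 2.48 ± 0.34 (adjusted p = 0.00535, limma), and lay between 2.24 and 2.87 with a library left out, where the adjusted p was 0.308 to 0.565. No test for a single library far from the others was run, since groups held 3 libraries.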

How the results depend on the processing

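Of the 70 genes of the CD83-high comparison, all that could be tested kept their direction under each alternative except in cells with neither MMP9 nor IL1R2, where HIVEP3 was at a log2 difference of -0.13 and SMAD7 at 0.035, both far from the threshold (adjusted p = 0.981 and 0.992, limma). The number past the threshold was 109 with a mean of at least 0.5, 1 with no replicate block and 42 to 141 with a library left out. In cells within the interquartile range of value totals it was 24. In cells with neither MMP9 nor IL1R2 it was 26, and in cells with no value of FLT3, ZBTB46 or CCR7 it was 20. The number was 116 with a CD83 minimum of 2 and 137 with a minimum of 5. It was 51 to 103 under the other alternatives. Higher genes made up 77.1% of calls (54 higher and 16 lower) and 41.6% with a CD83 minimum of 5 (57 higher and 80 lower). The CD83-intermediate comparison gave 0 genes with no replicate block and 23 to 35 with a library left out. The difference between monocytes and B cells gave 8 genes with a pseudocount of 0.5, 1 with no replicate block and 0 to 1 with a library left out.

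With 10 to 115 CD83-high cells in a library under these sets, genes of low level rest on a few values each. Rules that took fewer cells moved the number past the threshold both ways from 70. It fell to 24, 26 and 20 in the sets by value totals, by MMP9 and IL1R2 and by FLT3, ZBTB46 and CCR7. It was 103 under a limit on mitochondrial values and 79 in cells with no lymphocyte, thrombocyte or red blood cell marker. The highest CD83 minimum left 12, 29 and 32 CD83-high cells in libraries 1, 2 and 3, and 137 genes passed. The cause of each move, such as cell number or the kind of cells, was not tested. CD83 was read as transcripts in the cells sequenced, and a CD83 of 0 in a cell does not show that the transcript was absent there.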
